A study of Mus musculus with 7 samples.

Results

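Collagens, laminins and the other proteins of the basement membrane and interstitial matrix were followed through 7 bulk RNA sequencing libraries of regulatory T cells (Treg cells, a CD4 lineage that dampens immunity and needs the transcription factor FOXP3). The members were every gene whose symbol has the form of a collagen chain (Col, a number, a and a number) or of a laminin chain (Lama, Lamb or Lamc and a number), together with Nid1, Nid2, Hspg2, Fn1, Sparc and Fbn1. The rule took 61 of the 57180 genes in the deposited count table and used no measured value. Lymphocytes had been isolated from B16-F0 tumours, a transplantable mouse melanoma, and their Treg cells sorted by FOXP3 into 4 FOXP3-low and 3 FOXP3-high samples. All the mice were Foxp3-Cre-YFP animals, in which Cre recombinase and YFP are made where Foxp3 is active, and all samples carry the label WT for genotype, so neither group is a deletion or a treatment. The gates of the sort, the age of the mice and whether each sample was a different animal were not given in the sources used here, so a p-value here speaks of the spread among these libraries, part of which may be technical.

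Collagens are secreted proteins whose chains wind into helices and assemble outside the cell. Type IV collagen forms the sheet of the basement membrane, laminins (one alpha, one beta and one gamma chain) form a second sheet next to the cells, and nidogens and perlecan join them. Fibrillar collagens, type VI filaments, fibronectin and fibrillin make up the looser matrix between cells. In tumours these genes are chiefly known as products of fibroblasts, pericytes and endothelial cells, with fibronectin also made by macrophages, while T cells meet the matrix through integrins and other receptors.

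Values below are CPM (normalised read counts, scaled to the TMM-normalized size of each library), always listed in the order of replicates 1 to 4 of FOXP3-low and replicates 1 to 3 of FOXP3-high. Fold changes are on the log2 scale and positive where FOXP3-high is higher, with ± standard error, and adjusted p-values come from edgeR's quasi-likelihood test with Benjamini-Hochberg adjustment over 15838 tested genes, with 0.05 as the threshold. The 4 FOXP3-low libraries held 12177761 to 14546999 counts and the 3 FOXP3-high libraries 9048771 to 11202260. Foxp3 stood at 329.7, 397, 309.7 and 393 CPM in the FOXP3-low and 647, 808 and 639 CPM in the FOXP3-high libraries, in the order the labels give. All 17 CD4 T cell identity genes and all 7 Treg genes of the marker lists passed the filter on low counts.

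Few matrix genes differed between the groups beyond the spread of their libraries. Of the 61 members 41 passed the filter on low counts, and 7 of these were called, which is 17.1%, against 46.5% of all tested genes. Lamc1, Col11a2 and Lama5 rose in FOXP3-high, 3 members where 21.8% of all genes rose, and 4 members, among them Fn1, Lamb3 and Col23a1, fell where 24.6% of all genes fell. Col23a1 passed the filter through FOXP3-low alone, so it could enter this count only as lower in FOXP3-high. Besides those called, 1 member, Col16a1, had an unadjusted p under 0.05. The median log2 fold change was 0.29 over the tested members and 0.01 over all tested genes, and the members ran from -2.34 to 1.13. Leaving out each library in turn gave member medians of -0.79 (without FOXP3-high replicate 3) to 1.24 (without FOXP3-low replicate 3). The median of all tested genes then ran from -0.01 to 0.03. The members' median standard error was 0.839, against 0.155 over all tested genes. Among all genes the split of calls was 3459 higher and 3898 lower. It became 691 higher and 8346 lower when libraries were scaled to the T cell identity genes. This scaling moved the median of all genes to -0.50 and that of the members to -0.24. Under that scaling 5 members were called and all 5 were lower, so none of the 3 increases was called relative to T cell transcripts.

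**Figure D1:**
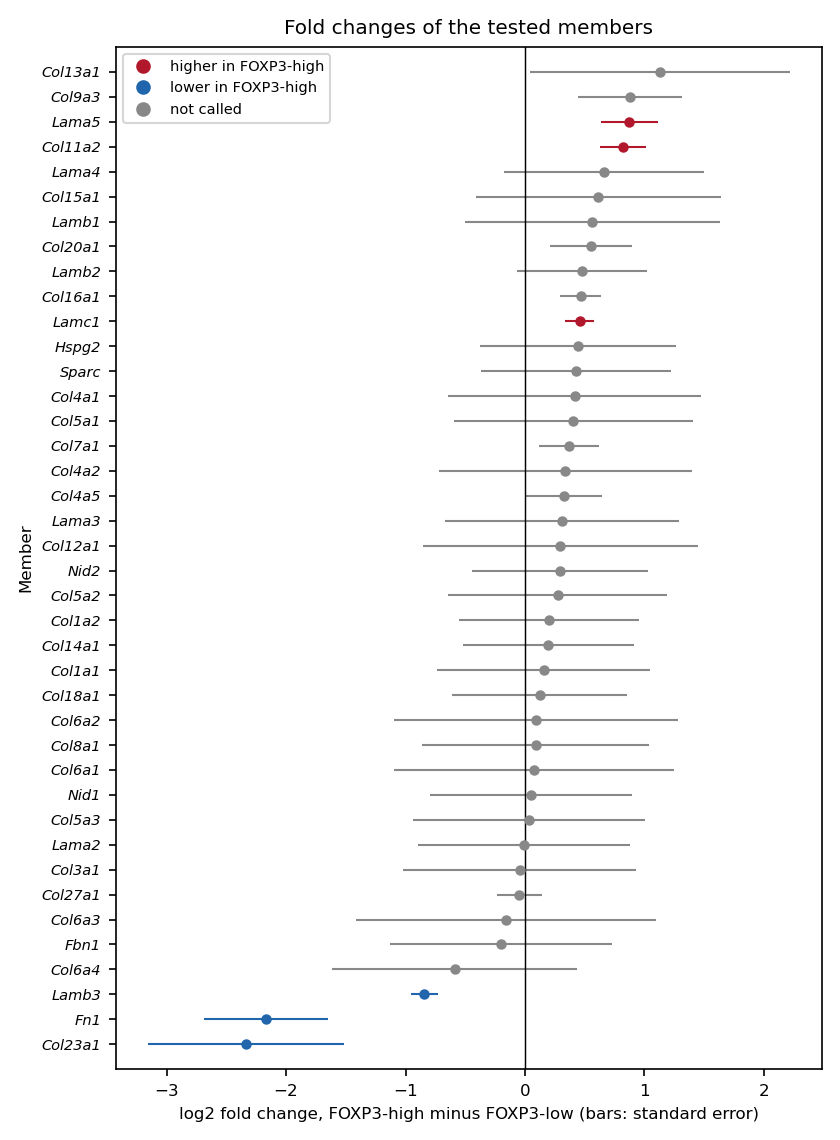
Log2 fold change (FOXP3-high minus FOXP3-low, horizontal axis) of 40 of the 41 tested members, with bars for the standard error and colours for the call at an adjusted p under 0.05. The called members shown have short bars apart from Fn1 and Col23a1, while most of the others have bars near or above 0.8 that reach across 0.

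The amount of matrix RNA differed far more between libraries of one group than between the groups. The members took 0.129%, 0.194%, 0.565% and 0.142% of counts in the FOXP3-low libraries and 0.231%, 0.0630% and 0.521% in the FOXP3-high libraries. Summed, the 61 members stood at 1331, 1983, 5760.1 and 1451 CPM in the FOXP3-low and 2225, 634 and 4987 CPM in the FOXP3-high libraries. FOXP3-low replicate 3 and FOXP3-high replicate 3 were the high libraries, FOXP3-high replicate 2 was the lowest of all, and the group means differed by a ratio of 0.994 (FOXP3-high over FOXP3-low). That ratio was 1.64 without FOXP3-low replicate 3 and 0.544 without FOXP3-high replicate 3. Fn1 took 47.5% and Lamc1 18.0% of member counts in FOXP3-low replicate 1, and Lamc1 took 56.9% in FOXP3-high replicate 2. Without Fn1 and Lamc1 the other 59 members ran from 459 to 4652 CPM in the FOXP3-low libraries and between 242 and 4324 CPM among FOXP3-high.

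Markers of blood vessel cells moved with these totals. The 15 endothelial markers, all tested, summed to 144, 204, 651 and 186 CPM in the FOXP3-low and 316, 77.7 and 703 CPM in the FOXP3-high libraries, with Tie1, Cldn5 and Robo4 at 0 counts in FOXP3-high replicate 2 and none of the 15 at 0 in another library. The 12 pericyte and smooth muscle markers summed to 40.95, 159, 665 and 76.3 CPM in the FOXP3-low and 128, 50.99 and 634 CPM in the FOXP3-high libraries, and Higd1b was the marker at 0 in some libraries. Neither list had a called member, with 0 of 15 and 0 of 11 tested at an adjusted p under 0.05 in edgeR, 0 and 0 at an unadjusted p under 0.05, and 0 and 0 by the DESeq2 Wald test. Of all tested genes 46.5% were called in edgeR. The most abundant endothelial markers, Pecam1 and Flt1, had log2 fold changes of 0.50 ± 0.30 (adjusted p = 0.213) and -0.038 ± 1.0 (adjusted p = 0.979), and Pecam1 passed without FOXP3-low replicate 3, at 0.84. The most abundant pericyte markers, Myh11 and Rgs5, had 0.12 ± 0.95 (adjusted p = 0.933) and 0.31 ± 1.18 (adjusted p = 0.854). The 12 fibroblast markers stood lower, at 28.2, 32.6, 91.1 and 22.3 CPM in the FOXP3-low and 26.8, 6.57 and 48.3 CPM in the FOXP3-high libraries. Of the 8 tested, Pdpn and Pi16 fell in FOXP3-high, at -2.86 ± 0.33 (adjusted p = 8.61e-05) and -3.60 ± 0.57 (adjusted p = 0.000657), which is 25% against 46.5% of all tested genes. The other tested fibroblast markers were not called, with log2 fold changes of -0.43 to 0.16. In FOXP3-low replicate 1, Pdpn and Pi16 gave 15.6 and 3.98 of the 28.2 CPM of the list. No marker of the list was at 0 except Pi16 in FOXP3-high replicate 1 and Pdgfra in FOXP3-high replicate 2. The summed members divided by the summed endothelial markers lay between 7.04 and 9.70 in the 7 libraries, a range of 1.38-fold, while the members themselves ranged 4.33-fold within FOXP3-low and 7.86-fold within FOXP3-high. Without Fn1 and Lamc1 that ratio ranged 2.30-fold, for type IV collagens alone 5.21-fold, and the ratio of all members to the pericyte and smooth muscle markers ranged 4.13-fold. The endothelial sum leaned on Pecam1, which gave 69.1 of the 77.7 CPM in FOXP3-high replicate 2 and 140 of the 703 CPM in FOXP3-high replicate 3. Pecam1 ranged 2.02-fold within FOXP3-high, against a median of 58.2-fold over the endothelial markers without a library at 0. The ratio without Pecam1 was not computed, so the 1.38-fold range cannot be taken to hold for the other endothelial markers. The part of these cells in the results was not tested, and in bulk samples fewer cells of a type and less RNA per cell cannot be told apart.

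**Figure D2:**
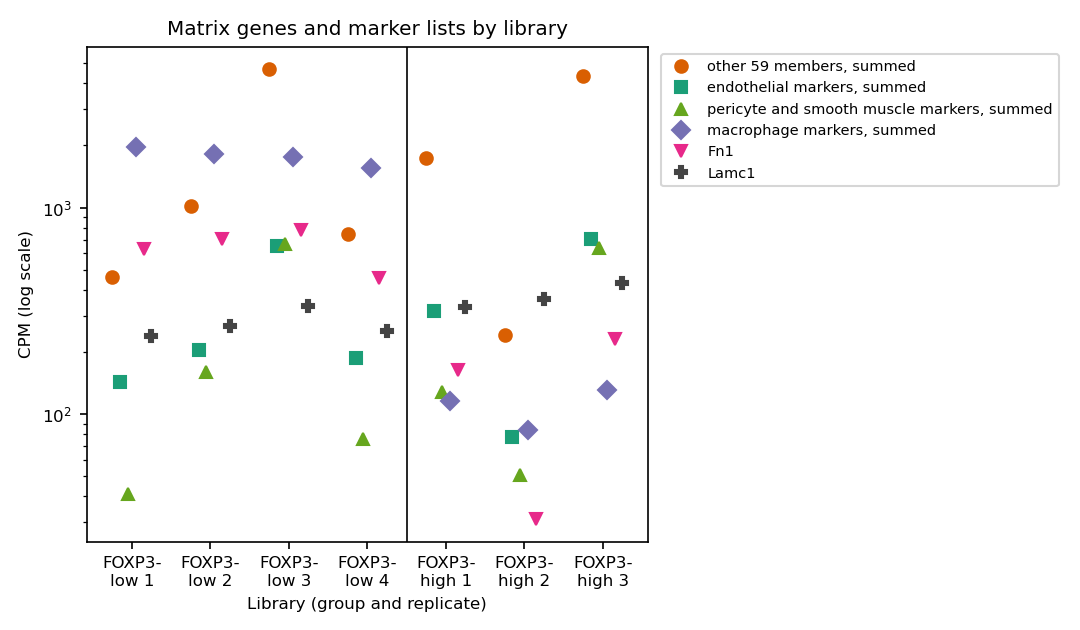
CPM on a log axis in each of the 7 libraries for Fn1, Lamc1, the sum of the other 59 members and the summed markers of 3 other cell types. The other members, the endothelial markers and the pericyte markers are highest in replicate 3 of each group. FOXP3-high replicate 2 is the lowest library except for the pericyte markers and Lamc1, which are lowest in FOXP3-low replicate 1. Lamc1 stays between 239 and 431 CPM, and the macrophage markers separate the groups.

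Macrophage and melanoma markers separated the groups and not the replicates. For the counts that follow, 21.8% of all tested genes rose in FOXP3-high and 24.6% fell. The 15 macrophage markers summed to 1954, 1811, 1764 and 1559 CPM in the FOXP3-low and 115, 83.6 and 131 CPM in the FOXP3-high libraries, and 14 of 15 fell, led by Cd68, Fcgr3 and Csf1r at log2 fold changes of -3.31, -3.91 and -3.95 (adjusted p = 9.82e-08, 2.37e-07 and 2.90e-07). Ms4a7 was at 0 in FOXP3-high replicate 2. The 10 melanoma and melanocyte markers summed to between 1335 and 2411 CPM at low FOXP3 and between 3298 and 4529 CPM at high FOXP3, and all 10 rose, among them Mitf, Tyrp1 and Dct at 0.85, 1.15 and 1.05 (adjusted p = 0.000238, 0.000869 and 0.000881). Of the T cell identity list 16 of 17 rose (among them Bcl11b and Lat at 1.13 and 0.82; adjusted p = 5.17e-07 and 2.89e-05). Of the Treg list 5 of 7 rose, with Foxp3, Ctla4 and Ikzf2 at 0.97, 0.71 and 0.54 (adjusted p = 7.47e-05, 0.000144 and 0.000244). Under the T cell scaling Ikzf2 (0.024) and Mitf (0.33) were not called. Keratinocyte and epithelial markers gave 1 higher (Epcam, 1.15 ± 0.18 (adjusted p = 0.000710)) and 1 lower (Cdh1, -1.95 ± 0.18 (adjusted p = 2.27e-05)) of 4 tested, and skeletal muscle markers 1 lower (Acta1, -1.59 ± 0.42 (adjusted p = 0.0116)) of 4 tested. Acta1 was not called without FOXP3-high replicate 1, at -1.37. The shares called in the epithelial and skeletal muscle lists were 50% and 25%, against 46.5% of all tested genes. No adipocyte marker of 5 passed the filter.

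Col3a1, Col5a1 and Col6a3 varied widely and together between libraries, while Lama5 and Col11a2 had steadier levels that differed between groups. Lama5 also showed the library orders of Col3a1, Col5a1 and Col6a3, and some members, such as Col27a1, were of neither kind. The regions before the start sites of these 5 members (Col3a1, Col5a1, Col6a3, Lama5 and Col11a2) are shown. Each is the 250 bases before the annotated start in RefSeq (GRCm38.p6, a different build from the count table), 5′ to 3′ on the gene's strand. Capitals mark the motifs GGGCGG (also as CCGCCC on the other strand) and TATAAA. Col3a1 lies at chr1:45311288-45311537, plus strand, Col5a1 at chr2:27886175-27886424, plus strand, Col6a3 at chr1:90843972-90844221, minus strand, Lama5 at chr2:180225860-180226109, minus strand, and Col11a2 at chr17:34038888-34039137, plus strand.
Col3a1: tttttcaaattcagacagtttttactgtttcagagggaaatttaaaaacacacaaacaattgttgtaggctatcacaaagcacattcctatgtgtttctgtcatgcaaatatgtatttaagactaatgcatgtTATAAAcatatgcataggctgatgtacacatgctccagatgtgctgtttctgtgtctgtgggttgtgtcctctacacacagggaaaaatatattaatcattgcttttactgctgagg
Col5a1: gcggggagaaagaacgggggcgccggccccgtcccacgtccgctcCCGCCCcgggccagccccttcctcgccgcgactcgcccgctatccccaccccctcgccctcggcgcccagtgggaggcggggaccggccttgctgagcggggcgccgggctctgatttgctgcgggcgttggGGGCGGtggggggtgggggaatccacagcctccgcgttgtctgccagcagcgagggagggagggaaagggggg
Col6a3: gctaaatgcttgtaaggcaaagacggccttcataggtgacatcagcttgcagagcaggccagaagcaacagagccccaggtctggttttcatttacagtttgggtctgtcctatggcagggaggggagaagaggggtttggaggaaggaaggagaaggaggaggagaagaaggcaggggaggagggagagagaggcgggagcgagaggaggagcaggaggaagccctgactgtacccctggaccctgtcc
Lama5: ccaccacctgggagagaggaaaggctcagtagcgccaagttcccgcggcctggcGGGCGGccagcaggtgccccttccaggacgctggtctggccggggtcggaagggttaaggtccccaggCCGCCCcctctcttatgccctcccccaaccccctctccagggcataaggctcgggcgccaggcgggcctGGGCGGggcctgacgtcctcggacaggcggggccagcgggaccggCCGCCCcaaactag
Col11a2: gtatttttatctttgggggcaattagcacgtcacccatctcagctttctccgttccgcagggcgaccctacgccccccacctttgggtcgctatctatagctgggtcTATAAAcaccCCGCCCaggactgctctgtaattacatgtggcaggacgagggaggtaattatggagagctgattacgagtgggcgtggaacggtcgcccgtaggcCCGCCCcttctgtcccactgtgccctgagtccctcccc

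Col3a1 had TATAAA 117 bases before the start and no GGGCGG in this window, with 35.2% G and C. Col5a1 was 76.4% G and C with 2 matches to GGGCGG, and Col6a3 had no match to either motif at 57.2% G and C. Lama5 had 4 matches to GGGCGG, 2 on each strand, and Col11a2 had 2 matches to GGGCGG and TATAAA 143 bases before the start, and none of the matches overlapped. RefSeq windows matched 44 of the 61 symbols, 48 windows in all, with a median of 59.2% G and C against 52.4% over 32851 windows of the same length. GGGCGG on either strand was in 27 of the 48 (56.25%) and in 32.7% of all windows, TATAAA in 5 (10.4%) and in 12.4%, and CCAAT, also searched on both strands, in 15 (31.25%) and in 33.8%. A match is a string of letters in this window and not a measured binding site.

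Type IV collagen had the highest summed level of the roles in replicate 3 of each group and in FOXP3-high replicate 1, and differed more between libraries of a group than between the groups. Col4a1 (ENSMUSG00000031502, chromosome 8, 11248423 to 11362826, minus strand, GRCm39) stood at 97.02, 282, 1329 and 188 CPM in the FOXP3-low and 491, 29.8 and 1375 CPM in the FOXP3-high libraries. Replicate 3 was high and FOXP3-high replicate 2 low, the groups overlapped, and no difference was detectable (log2 fold change 0.41 ± 1.06, adjusted p = 0.782). Its log2 fold change was 1.74 without FOXP3-low replicate 3 and -0.86 without FOXP3-high replicate 3. Col4a2 (ENSMUSG00000031503, chromosome 8, 11362805 to 11499287, plus strand) pairs with Col4a1 in the common type IV network and starts beside it on the opposite strand. Col4a2 stood at 49.3, 179, 761 and 108 CPM in the FOXP3-low and 287, 15.4 and 737 CPM in the FOXP3-high libraries. Within each group it kept the same order of libraries as Col4a1 (log2 fold change 0.34 ± 1.06, adjusted p = 0.824). The annotated genes overlap by 22 bases, so without a stated strand setting a few reads could be assigned to either. Per kilobase of gene length, Col4a1 was 1.40 to 1.74 times Col4a2 in the 7 libraries, a range of 1.25-fold, while Col4a1 alone ranged 46.1-fold within FOXP3-high. Per length they had the highest means over all libraries, at 72.6 and 46.1 CPM per kilobase, a rank that did not hold in each library. In the FOXP3-low mean Fn1 (54.9 CPM per kilobase) lay above Col4a2 (41.4), and in FOXP3-high replicate 2 Lamc1 stood at 43.7 against 2.32 for Col4a2. Type IV chains made up 7.57% of the summed members in FOXP3-high replicate 2 and 42.4% in FOXP3-high replicate 3, so the makeup of the matrix transcripts shifted with their amount. Col4a5, the chain of a more restricted type IV network, was low at 1.71, 1.22, 2.38 and 2.01 CPM in the FOXP3-low and 2.75, 1.56 and 2.55 CPM in the FOXP3-high libraries (log2 fold change 0.33 ± 0.32, adjusted p = 0.445). Col4a3, Col4a4 and Col4a6 did not pass the filter, with at most 16 counts in a library.

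The linkers of the basement membrane had the same high and low libraries as Col4a1. Nid1 (nidogen, which bridges the laminin and type IV sheets), Nid2, its relative, and Hspg2 (perlecan, a heparan sulfate proteoglycan) together stood at 21.05, 43.6, 167 and 34.5 CPM in the FOXP3-low and 69.6, 10.5 and 157 CPM in the FOXP3-high libraries. All 3 were highest in replicate 3 of each group, and log2 fold changes ran from 0.050 (Nid1) to 0.44 (Hspg2) with standard errors of 0.74 to 0.85, none of them called. Nid2 shares 437 bases with Rtraf on the opposite strand, which holds 322% as many counts, so its count is uncertain. The multiplexins of vascular basement membranes were also highest in replicate 3 of each group and, within FOXP3-high, lowest in replicate 2. Col18a1, from which endostatin is cut, stood at 36.7, 68.2, 225 and 57.7 CPM in the FOXP3-low and 71.2, 24.4 and 221 CPM in the FOXP3-high libraries (log2 fold change 0.12 ± 0.73, adjusted p = 0.907). Col15a1 stood at 17.8, 20.2, 149 and 25.3 CPM in the FOXP3-low and 74.1, 2.12 and 168 CPM in the FOXP3-high libraries (log2 fold change 0.62 ± 1.02, adjusted p = 0.663), with FOXP3-high replicate 3 at 79.3 times replicate 2. Neither separated the groups.

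**Figure D3:**
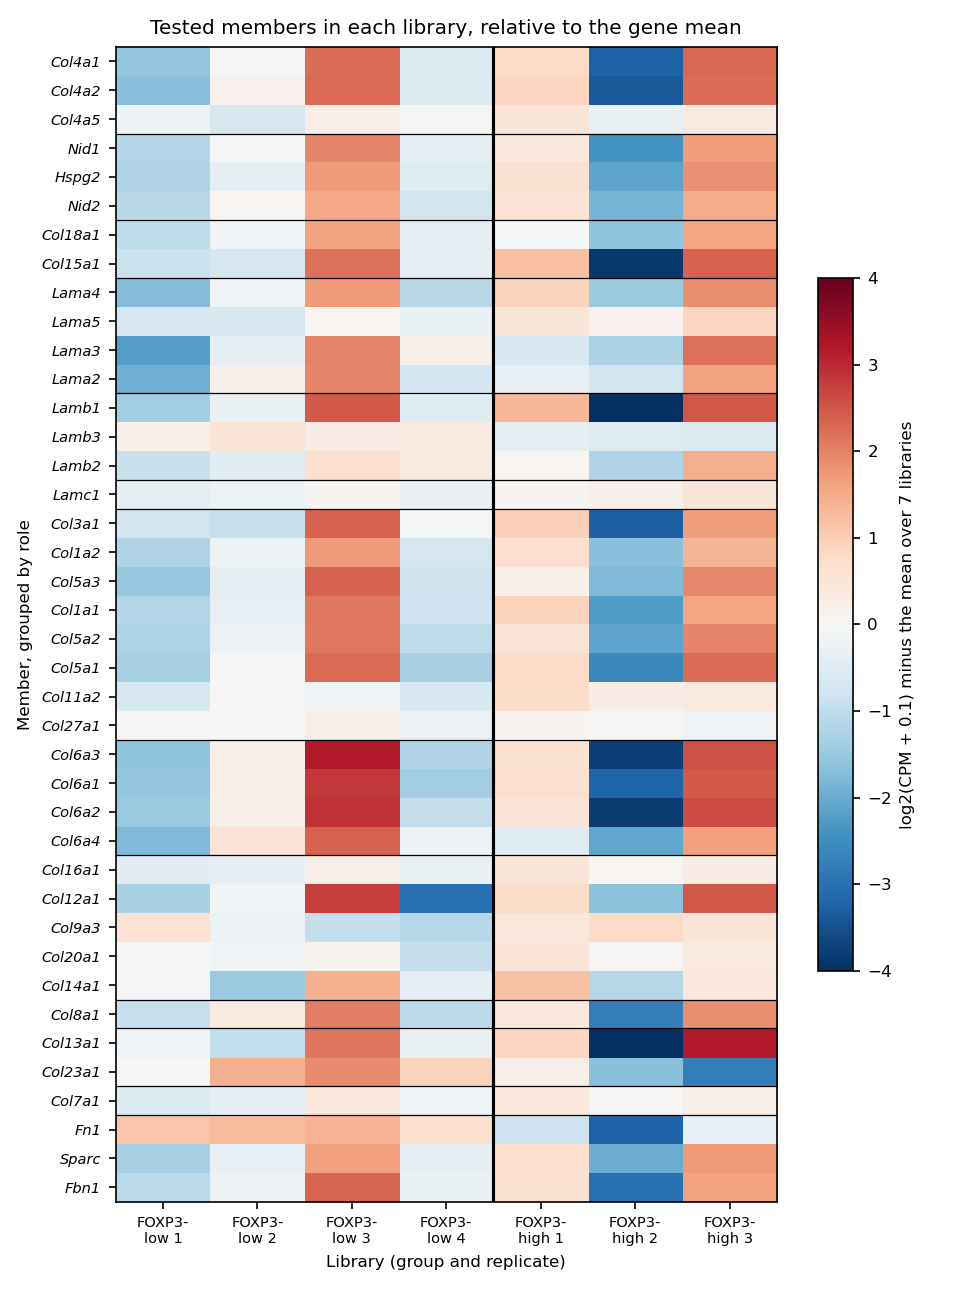
40 of the 41 tested members (rows, grouped by role) in each library (columns), coloured by log2(CPM + 0.1) minus the member's mean over the 7 libraries, with colours limited at 4. FOXP3-low replicate 3 and FOXP3-high replicate 3 are red and FOXP3-high replicate 2 is blue in most rows, while Lamc1, Lamb3, Lama5, Col11a2, Col16a1 and Col27a1 stay pale.

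Among laminin chains Lamc1 and Lama5 rose and Lamb3 fell, while Lama2, Lama3, Lama4, Lamb1 and Lamb2 were not called and were highest in replicate 3 of each group. Lamc1 (ENSMUSG00000026478, chromosome 1, 153094668 to 153208532, minus strand, GRCm39), the gamma chain of most laminins, stood at 239, 266, 333 and 253 CPM in the FOXP3-low and 332, 361 and 431 CPM in the FOXP3-high libraries. It was the only laminin chain above 200 CPM in any library, its FOXP3-high libraries lay above all FOXP3-low libraries but replicate 3, and it rose 1.37-fold (log2 fold change 0.46 ± 0.12, adjusted p = 0.0115). Under the T cell scaling its direction flipped, to -0.062. Lamb1, the beta chain that Lamc1 most often joins, stood at 6.01, 12.6, 84.2 and 11.1 CPM in the FOXP3-low and 38.8, 0.779 and 87.2 CPM in the FOXP3-high libraries (log2 fold change 0.56 ± 1.07, adjusted p = 0.704), 112 times higher in FOXP3-high replicate 3 than in replicate 2. Per kilobase, Lamc1 was therefore 4.75 to 47.7 times Lamb1 in the FOXP3-low and 5.93 to 556 times in the FOXP3-high libraries. Lamb2, the alternative beta chain, stood at 5.93, 8.22, 17.4 and 14.2 CPM in the FOXP3-low and 11.9, 4.79 and 30.95 CPM in the FOXP3-high libraries (log2 fold change 0.47 ± 0.54, adjusted p = 0.515).

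Of the alpha chains, which give laminins their receptor binding, Lama4 and Lama5 differed in behaviour. Lama4, the alpha chain of vessel walls, stood at 8.45, 25.7, 94.1 and 13.1 CPM in the FOXP3-low and 53.2, 10.2 and 105 CPM in the FOXP3-high libraries (log2 fold change 0.66 ± 0.84, adjusted p = 0.558), high in replicate 3 of both groups. Lama5 (ENSMUSG00000015647, chromosome 2, 179818166 to 179867652, minus strand), the alpha chain of mature endothelial and epithelial basement membranes, stood at 3.90, 4.07, 6.66 and 5.10 CPM in the FOXP3-low and 8.77, 7.01 and 11.3 CPM in the FOXP3-high libraries. Every FOXP3-high library lay above every FOXP3-low library, and Lama5 rose 1.83-fold (log2 fold change 0.87 ± 0.24, adjusted p = 0.0140). It was no longer called without FOXP3-high replicate 3 (log2 fold change 0.68, adjusted p = 0.0596) or under the T cell scaling (0.36). The remaining alpha chains were low, with Lama2 and Lama3 at or under 7.17 CPM and not called, and Lama1 not tested at 2 counts in all.

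Lamb3, the beta chain of the laminin that anchors epithelia, fell. Lamb3 (ENSMUSG00000026639, chromosome 1, 192890007 to 193026186, plus strand, GRCm39) stood at 15.2, 18.2, 15.9 and 16.6 CPM in the FOXP3-low and 9.97, 9.02 and 8.59 CPM in the FOXP3-high libraries. The 3 FOXP3-high libraries lay below all 4 FOXP3-low libraries. Lamb3 fell 1.79-fold (log2 fold change -0.84 ± 0.12, adjusted p = 0.000288), and it was called in all 18 alternatives run. Lama3, the alpha chain of the same laminin, was not called, at 0.244, 1.14, 6.10 and 1.76 CPM in the FOXP3-low and 0.946, 0.557 and 7.17 CPM in the FOXP3-high libraries (log2 fold change 0.31 ± 0.98, adjusted p = 0.824). The Lamb3 count is uncertain, since its annotated span overlaps G0s2, Hsd11b1 and Gm38118 on the opposite strand and Gm37691 on the same strand, which hold 523%, 189%, 14.7% and 42.2% as many counts. Whether reads of these genes entered the Lamb3 count was not tested.

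Fibrillar collagens, which bear the load of connective tissue, were not called apart from Col11a2. Col1a1, the main chain of type I collagen, stood at 9.26, 16.7, 89.9 and 11.6 CPM in the FOXP3-low and 39.6, 4.23 and 62.8 CPM in the FOXP3-high libraries (log2 fold change 0.16 ± 0.89, adjusted p = 0.902). Its partner Col1a2 stood at 11.5, 23.3, 88.2 and 16.8 CPM in the FOXP3-low and 42.9, 8.35 and 69.6 CPM in the FOXP3-high libraries (log2 fold change 0.20 ± 0.75, adjusted p = 0.851). Per kilobase Col1a1 was 0.959 to 1.93 times Col1a2, the lowest ratio being in FOXP3-high replicate 2. Col3a1, of the distensible matrix of vessels and skin, stood at 27.1, 23.3, 229 and 42.999 CPM in the FOXP3-low and 87.6, 4.56 and 142 CPM in the FOXP3-high libraries (log2 fold change -0.044 ± 0.98, adjusted p = 0.976), and its log2 fold change was 1.33 without FOXP3-low replicate 3. The type V chains, which set the width of collagen fibrils, showed the same libraries high and low. Col5a1, Col5a2 and Col5a3 ran from 2.12 CPM (Col5a1, FOXP3-high replicate 2) to 110.1 CPM (Col5a3, FOXP3-low replicate 3), with log2 fold changes of 0.40, 0.27 and 0.032 and standard errors of 0.92 to 1.0.

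Col11a2 (ENSMUSG00000024330, chromosome 17, 34258411 to 34284782, plus strand, GRCm39), a type XI chain best known from cartilage, behaved differently. It stood at 6.74, 10.6, 9.39 and 6.94 CPM in the FOXP3-low and 17.7, 12.9 and 13.97 CPM in the FOXP3-high libraries. All FOXP3-high libraries were above all FOXP3-low libraries, and it rose 1.77-fold (log2 fold change 0.82 ± 0.19, adjusted p = 0.00620). Its libraries did not follow the order of Col1a1 or Col4a1, FOXP3-high replicate 1 being the highest. Under the T cell scaling Col11a2 was 0.31 and not called. The summed melanoma markers also rose between the groups, from between 1335 and 2411 CPM to between 3298 and 4529 CPM. The T cell identity sum rose too, from between 3194 and 3672 CPM to between 4673 and 5412 CPM. The part of either in the increases of Col11a2, Lama5 and Lamc1 was not tested. Col27a1 was steady throughout, at 4.79, 4.64, 5.61 and 3.93 CPM in the FOXP3-low and 5.07, 4.45 and 4.25 CPM in the FOXP3-high libraries (log2 fold change -0.047 ± 0.19, adjusted p = 0.862). Under the T cell scaling Col27a1 was called, as lower in FOXP3-high. Col2a1, Col11a1 and Col24a1 were not tested, each at no more than 16 counts in a library.

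Type VI collagen, whose beaded filaments surround cells near basement membranes, ranged widely within each group, the highest library being a median of 24.4 times the lowest in FOXP3-low and 66.9 times in FOXP3-high over its 4 tested chains. Col6a1 stood at 9.51, 33.7, 201 and 10.6 CPM in the FOXP3-low and 43.7, 3.01 and 155 CPM in the FOXP3-high libraries (log2 fold change 0.075 ± 1.17, adjusted p = 0.966). Col6a2 stood at 7.80, 25.7, 165 and 11.3 CPM in the FOXP3-low and 31.3, 1.45 and 135 CPM in the FOXP3-high libraries (log2 fold change 0.091 ± 1.19, adjusted p = 0.959). Col6a3 stood at 12.2, 44.9, 341 and 16.1 CPM in the FOXP3-low and 57.3, 2.67 and 219.7 CPM in the FOXP3-high libraries (log2 fold change -0.16 ± 1.26, adjusted p = 0.932). In FOXP3-high, replicate 3 exceeded replicate 2 by 51.6, 93.3 and 82.2 times in the 3 genes, and FOXP3-low replicate 3 stood at 5.97 to 7.61 times the next highest FOXP3-low library. Leaving out FOXP3-high replicate 3 gave log2 fold changes of -1.42 (Col6a1), -1.64 (Col6a2) and -1.76 (Col6a3), and leaving out FOXP3-low replicate 3 gave 1.90, 1.90 and 1.93. The chains kept nearer to each other, with Col6a1 at 1.79 to 3.95 times Col6a2 and Col6a3 at 0.325 to 0.622 times Col6a1 per kilobase. Col6a4, one of the newer chains of the family, was low at 0.111 to 4.49 CPM and not called, and Col6a5 and Col6a6 were not tested.

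Collagens that decorate fibrils or span the cell membrane were lower and more mixed. Col16a1, a fibril-associated chain, stood at 16.98, 17.7, 27.3 and 18.4 CPM in the FOXP3-low and 31.6, 23.8 and 27.8 CPM in the FOXP3-high libraries and lay just outside the threshold (log2 fold change 0.47 ± 0.17, adjusted p = 0.0504). It was called in 11 of the 18 alternatives, among them without FOXP3-low replicate 3 (0.64, adjusted p = 0.00240) and without FOXP3-high replicate 2 (0.59, adjusted p = 0.0320), and its direction flipped under the T cell scaling, to -0.055. Of the other fibril-associated chains, Col12a1 ran from 0.335 to 22.9 CPM, while Col9a3, Col14a1 and Col20a1 stayed between 0.325 and 3.08 CPM. None of the 4 was called, with log2 fold changes of 0.19 to 0.88. Among the alternatives, Col9a3 was called as higher by limma-voom with quality weights and without FOXP3-low replicate 1. Col13a1, a transmembrane collagen, had the largest positive fold change of the tested members and an error nearly as large (log2 fold change 1.13 ± 1.09, adjusted p = 0.433), with 0 CPM in FOXP3-high replicate 2 and 24.7 CPM in replicate 3. Col23a1, another transmembrane chain, was the called member nearest the threshold (log2 fold change -2.34 ± 0.82, adjusted p = 0.0413), at 0.569 to 2.38 CPM among FOXP3-low and 0 to 0.688 CPM among FOXP3-high libraries. It passed the filter on low counts through FOXP3-low alone and was called in 9 of the 18 alternatives. Its log2 fold change was -1.99 and -1.77, and not called, without FOXP3-high replicates 2 and 3, and -4.59 without FOXP3-high replicate 1, and it fell under the filter without FOXP3-low replicates 2, 3 or 4. Col7a1, of the anchoring fibrils of skin, stood at 3.82 to 7.78 CPM, and Col8a1, a short-chain collagen of vessel walls, at 0.111 to 5.82 CPM, neither of them called. Without FOXP3-low replicate 3, Col7a1 was called as higher.

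Fn1 (ENSMUSG00000026193, chromosome 1, 71624679 to 71692359, minus strand, GRCm39), which encodes fibronectin, was the most abundant member in FOXP3-low outside replicate 3 and had the clearest large decrease. Its libraries stood at 633, 704, 775 and 456 CPM in the FOXP3-low and 164, 31.1 and 231 CPM in the FOXP3-high libraries. Every FOXP3-high library lay below every FOXP3-low library, and Fn1 fell 4.50-fold (log2 fold change -2.17 ± 0.52, adjusted p = 0.00694). Leaving out each library gave log2 fold changes of -2.70 to -1.67, all called. Within FOXP3-high it kept the order of the vascular markers, with replicate 3 highest and replicate 2 lowest by 7.45 times, whereas the FOXP3-low libraries differed by 1.70-fold at most. Macrophage markers fell with Fn1 between the groups, from between 1559 and 1954 CPM summed to between 83.6 and 131 CPM, and their part in the Fn1 result was not tested. Per kilobase, Fn1 went from 4.17 times Col4a1 in FOXP3-low replicate 1 to 0.108 times in FOXP3-high replicate 3.

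The other glycoproteins did not share the decrease. Sparc, a secreted collagen-binding protein, stood at 31.8, 64.3, 248 and 62.2 CPM in the FOXP3-low and 128, 20.2 and 263 CPM in the FOXP3-high libraries (log2 fold change 0.43 ± 0.80, adjusted p = 0.698). Fbn1, the main fibrillin of microfibrils, stood at 3.58, 6.67, 38.97 and 6.36 CPM in the FOXP3-low and 11.9, 0.891 and 23.5 CPM in the FOXP3-high libraries (log2 fold change -0.20 ± 0.93, adjusted p = 0.880). Within each group both followed the order of Col4a1, and their groups overlapped.

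Spread between libraries of one group was far larger for most members than for most other genes. The highest library of a group was a median of 8.89 times the lowest in FOXP3-low and 12.9 times in FOXP3-high over the tested members (leaving out Col13a1 and Col23a1 in FOXP3-high, with a library at 0), against 1.29 and 1.26 times over all tested genes. Without FOXP3-low replicate 3 the first value was 2.06, and without replicate 1 it was 5.33. Without FOXP3-high replicate 2 the other was 2.13, and without replicate 3 it was 5.43. FOXP3-low replicate 3 was the highest of its group in 38 of 41 members (92.7%, against 26.2% of all tested genes), and FOXP3-high ran in the order replicate 3, 1, 2 in 29 members (70.7%, against 19.4%). Both orders held in 29 members, against 8.73% of all genes. In edgeR's fit the biological coefficient of variation of a gene is compared with the trend for genes of its level, and 28 members (68.3%) lay above 2 times the trend, against 2.82% of all genes. Their median coefficient was 0.746 over the members and 0.156 over all genes. The vessel marker lists showed the same traits. Both orders held in 14 of 15 tested endothelial and 11 of 11 tested pericyte and smooth muscle markers. Above 2 times the trend lay 15 and 11 of them. The groups did not overlap in 2 higher members (Col11a2 and Lama5), where 23.9% of all genes lie apart in that direction, and in 3 lower ones (Fn1 and Lamb3 among them), against 26.8%. In either direction 5 members stood apart, against 50.7% of all genes.

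**Figure D4:**
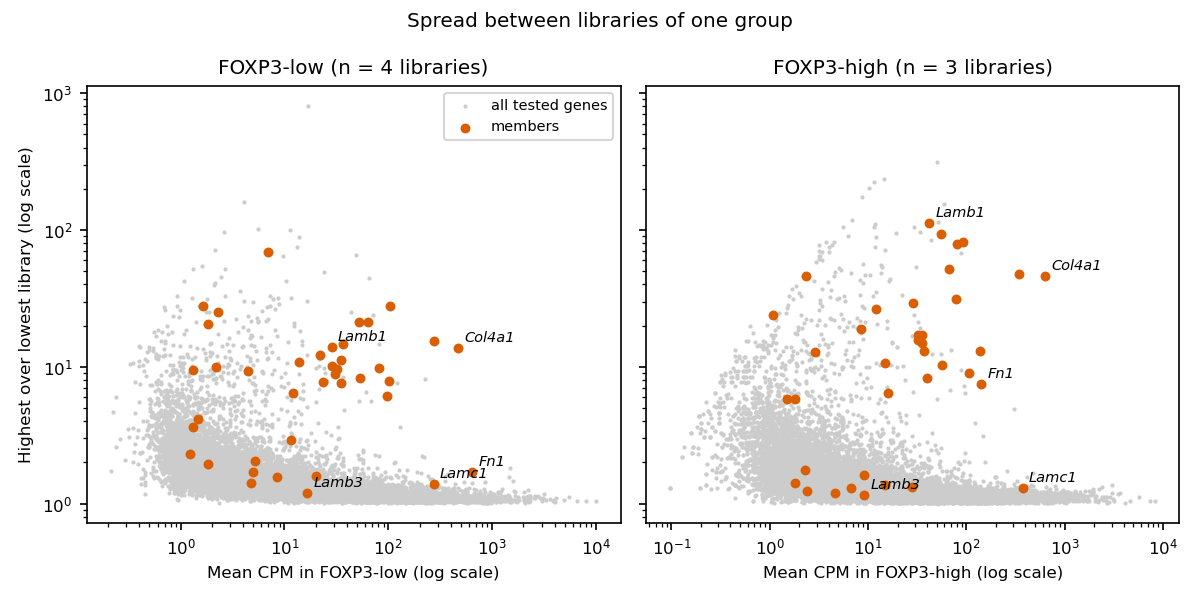
Highest over lowest library of a group against the mean CPM of the group, both on log axes, for all tested genes (grey) and 40 of the tested members (orange), in FOXP3-low (left) and FOXP3-high (right). Most members sit well above the grey cloud, with Lamb1 at 112-fold and Col4a1 at 46.1-fold in FOXP3-high, while Lamc1 and Lamb3 lie within it. Genes with a library at 0 have no ratio and are not drawn.

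The remaining 13 members, within 2 times the trend, held 6 of the 7 calls, and Fn1 was the called member above it. This split was made after the values were seen, and the dispersion also enters the test, so the count is a description. Among these 13 were Lamc1, Lamb3, Lama5, Col4a5, Col7a1, Col9a3, Col11a2, Col14a1, Col16a1, Col20a1, Col23a1 and Col27a1. Their median highest over lowest library was 1.71 in FOXP3-low and 1.35 in FOXP3-high, against 10.6 and 17.2 for the 28 others. The trend is higher for genes of low counts, and some of the 13 still ranged widely, with Col14a1 at 9.48-fold in FOXP3-low and 5.79-fold in FOXP3-high and Col9a3 at 3.64-fold in FOXP3-low. Of these 13, Lama5 alone showed both library orders, whereas all 28 others did. The 20 members that were not tested held little signal, 18 of them with at most 26 counts in any library, and Col19a1 had 0 counts in all 7.

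Enzymes and partners of the collagen pathway were taken from lists chosen with earlier results of these data known. Of 18 genes of chain modification and folding 15 were tested, 2 rose and 4 fell, with a median log2 fold change of 0.22. The share called was 40%, against 46.5% of all tested genes. Ppib, a prolyl isomerase that speeds folding of the collagen helix, stood at 449.7 ± 8.996 CPM in the FOXP3-low and 339 ± 6.12 CPM in the FOXP3-high libraries (mean ± SD, n = 4 and n = 3; log2 fold change -0.41 ± 0.040, adjusted p = 3.02e-05). Colgalt1, a galactosyltransferase of collagen lysines, fell by 0.64 ± 0.10 (adjusted p = 0.000568), and P4hb, a subunit of prolyl hydroxylase, by 0.57 ± 0.09 (adjusted p = 0.000599). Ppib and P4hb serve the folding of many secreted proteins besides collagen. The summed list, to which Ppib and P4hb gave the largest parts in FOXP3-low, ranged 1.12-fold within FOXP3-low and 1.14-fold within FOXP3-high. Gene by gene, 6 of the 15 (40%) showed both library orders of the matrix members, against 8.73% of all tested genes. Above 2 times the dispersion trend lay 1 of the 15 (6.67%, against 2.82% of all tested genes).

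Of 14 genes of procollagen processing and cross-linking 10 were tested, none rose and 2 fell, which is 20% against 46.5% of all tested genes. Both library orders held in 8 of the 10, and 6 lay above 2 times the dispersion trend, shares of 80% and 60%. The same shares were 70.7% and 68.3% of the tested members, and 8.73% and 2.82% of all tested genes. Tgm2, a transglutaminase also known from macrophages, stood at 279, 259, 242 and 222 CPM in the FOXP3-low and 19.2, 9.13 and 36.8 CPM in the FOXP3-high libraries (log2 fold change -3.52 ± 0.35, adjusted p = 3.65e-05), and Adamts14, a procollagen peptidase, at 13.9, 13.2, 10.9 and 10.5 CPM in the FOXP3-low and 6.45, 4.90 and 8.40 CPM in the FOXP3-high libraries (log2 fold change -0.87 ± 0.20, adjusted p = 0.00568). Without FOXP3-low replicate 3 the list had 4 calls, 2 higher and 2 lower. Of 14 other basement membrane genes 5 were tested, 2 rose and 1 fell, which is 60% against 46.5% of all tested genes. Tinagl1, a secreted basement membrane protein, stood at 13.6, 10.01, 19.8 and 17.1 CPM in the FOXP3-low and 34.6, 25.2 and 48.2 CPM in the FOXP3-high libraries (log2 fold change 1.25 ± 0.25, adjusted p = 0.00272). Agrn (agrin, a heparan sulfate proteoglycan) stood at 10.97, 11.9, 17.03 and 11.9 CPM in the FOXP3-low and 15.9, 18.04 and 26.7 CPM in the FOXP3-high libraries (log2 fold change 0.64 ± 0.21, adjusted p = 0.0289) and was not called without FOXP3-low replicate 1, 2 or 4 or FOXP3-high replicate 3, at 0.59, 0.62, 0.62 and 0.39. Neither was called under the T cell scaling, at 0.74 for Tinagl1 and 0.13 for Agrn. Npnt (nephronectin, an integrin ligand) stood at 9.43, 9.60, 9.60 and 8.87 CPM in the FOXP3-low and 3.87, 4.79 and 6.32 CPM in the FOXP3-high libraries (log2 fold change -0.91 ± 0.19, adjusted p = 0.00295).

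Of 27 other microfibril and matrix genes 21 were tested, 1 rose and 5 fell, which is 28.6% against 46.5% of all tested genes. Both library orders held in 13 (61.9%, against 8.73% of all tested genes). The lower genes with the smallest adjusted p were Emilin2, Tgfbi and Vcan, an elastin-associated glycoprotein, a secreted adhesion protein and the proteoglycan versican. Their log2 fold changes were -4.10 ± 0.28 (adjusted p = 3.29e-06), -4.65 ± 0.38 (adjusted p = 9.80e-06) and -4.07 ± 0.35 (adjusted p = 1.42e-05). Macrophage markers moved with them in the same libraries, and their part was not tested. Of 27 matrix receptors 25 were tested, 8 rose and 6 fell, which is 56.0% against 46.5% of all tested genes. Itgb3, the beta chain of a receptor for fibronectin and vitronectin, rose from 166 ± 10.3 to 376 ± 16.2 CPM (log2 fold change 1.18 ± 0.058, adjusted p = 6.06e-07). Cd44, a hyaluronan receptor, stood at 405 ± 7.50 CPM in the FOXP3-low and 255 ± 4.05 CPM in the FOXP3-high libraries (log2 fold change -0.67 ± 0.040, adjusted p = 1.53e-06). Lair1, an inhibitory collagen receptor of leukocytes, stood at 41.2, 31.4, 30.4 and 24.2 CPM in the FOXP3-low and 4.30, 2.45 and 4.25 CPM in the FOXP3-high libraries (log2 fold change -3.10 ± 0.23, adjusted p = 5.98e-06). The summed receptors stood at 1599, 1598, 1724 and 1496 CPM in the FOXP3-low and 1578, 1541 and 1638 CPM in the FOXP3-high libraries, a range of 1.15-fold within FOXP3-low and 1.06-fold within FOXP3-high, highest in replicate 3 of each group. Of the 25 tested receptors 12 (48%) had FOXP3-low replicate 3 highest and FOXP3-high in the order replicate 3, 1, 2, against 8.73% of all tested genes.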

How the data were processed

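Per the labels' protocols, TRIzol was used to extract the RNA of 4 FOXP3-low and 3 FOXP3-high Treg samples, from which stranded mRNA libraries were prepared. The authors deposited raw, whole-number read counts per gene for 57180 genes, beside each gene's position and length. Reads had passed through fastp 0.23.4, STAR 2.5.3a and featureCounts, per the submitters' processing notes, which name GRCh38 and GRCm39 as builds. Positions are printed here as GRCm39. Strand setting, treatment of reads shared between genes and handling of duplicates were not given in the sources used here, so counts of overlapping genes are uncertain. The unmapped sample columns numbered 0, and 0 rows lacked a gene name. Total counts were 9048771 to 14546999 per library. A count of 0 allows up to 3 counts, or 0.210 to 0.333 CPM, which covers counting error only.

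Sample titles gave the group and the replicate number. Counts of replicates differed by more than sampling noise in every pair (chi-square per gene 3.98 to 12.2), so each library was counted once. With edgeR 4.0.16 (R 4.3.3) genes were filtered by filterByExpr (minimum count 10, total 15), libraries were normalized by TMM, and the quasi-likelihood test compared the groups without a block. A standard error is the size of the log2 fold change over the root of its F statistic. Levels between genes were compared as CPM per kilobase of the deposited length. The test was checked on simulated counts. Alternatives were 4 other scalings, 2 other filters, DESeq2 1.42.0, limma-voom (limma 3.58.1) with and without quality weights, each library left out, both libraries numbered 3 left out, and a replicate block.

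The members, the 15 other lists (208 genes, all matched) and the alternatives were chosen with earlier results of these data known. Values in every sample are given for Col4a1, Fn1, every called member with a mean of at least 1 CPM, the 10 most abundant members and the partner chains of type I, IV and VI collagen and of the main laminins; 1 called member and 1 gene of another list that met these rules are not reported here. In other lists up to 3 called genes with the smallest adjusted p are named, or the 2 most abundant where none was called. Values in every sample of other members, and Krt5 and Krt14, were added after they were seen. Promoter sequences came from RefSeq (GRCm38.p6); 17 members without a window there were not searched.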

Additional observations from a re-analysis of the deposited data

Results flagged for a closer look

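Of 52 quantities examined in the 4 FOXP3-low libraries, 25 had a highest or lowest library whose gap to its nearest neighbour exceeded the 95% critical value of Dixon's test. Chance flags about 1 in 20 groups, and the members share their libraries, so these are not 25 separate observations. In all 25 the library was FOXP3-low replicate 3, and it was the highest. Among members these were Col4a1 at 1328.56 CPM, Col6a3 at 341 CPM, Sparc at 248 CPM, Col3a1 at 229 CPM, Col18a1 at 225 CPM, Col6a1 at 201 CPM, Col6a2 at 165 CPM, Col15a1 at 149 CPM, Col1a1 at 89.9 CPM, Col1a2 at 88.2 CPM, Lamb1 at 84.2 CPM and Col16a1 at 27.3 CPM.

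The summed members (5760.05 CPM), the members without Fn1 and Lamc1 (4652 CPM), and the sums of type IV (2093.64 CPM), type VI (713 CPM), fibrillar (679.7 CPM), multiplexin (373 CPM), fibril-associated (56.8 CPM) and transmembrane collagens (23.1 CPM), of the basement membrane linkers (167 CPM) and of laminin beta chains (117 CPM) stood apart in the same way. So did the summed endothelial (651 CPM), fibroblast (91.1 CPM) and keratinocyte and epithelial markers (34.1 CPM). The pericyte and smooth muscle marker sum did not, nor did the macrophage, melanoma, T cell identity and Treg marker sums. The 3 FOXP3-high libraries are too few for this test.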

How the results depend on the processing

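Fn1 and Lamb3 kept their direction and their call in all 18 alternatives, Lamc1 and Col11a2 in 17 each, Lama5 in 16 and Col23a1 in 9; the number of members called ranged from 5 to 9. The 20 untested members did not pass the filter on low counts of the reported fit. With no filter 60 members were tested and 9 called, among them Col17a1, whose counts came mostly from FOXP3-low replicate 3. Scaling to the T cell identity genes moved the median of all genes to -0.50 and gave -0.062 for Lamc1, -0.10 for Col4a1, -0.18 for Col4a2, -0.085 for Sparc, -0.39 for Col18a1, -0.45 for Col6a1, -0.43 for Col6a2, -0.38 for Col1a1, -0.32 for Col1a2, -0.010 for Lamb2, -0.055 for Col16a1, -0.019 for Pecam1, -0.40 for Myh11 and -0.21 for Rgs5. Under it other basement membrane genes had 1 call, T cell identity genes 10 and skeletal muscle genes 2. Upper quartile factors gave 0.021 for Col3a1 and 0.025 for Flt1, and total counts 0.043 and 0.051. Limma-voom gave -0.040 for Col4a1, -0.096 for Col4a2, -0.039 for Col18a1, -0.0018 for Col6a1, -0.052 for Col15a1, -0.32 for Col6a2 and -0.060 for Lamb1; with quality weights it gave 0.32 for Col6a3 and 0.42 for Col3a1, and 2 skeletal muscle calls. No filter gave 4 keratinocyte calls, and the filter of 50 counts in 3 libraries 1 fibroblast call. Without both libraries numbered 3, Col18a1 was -0.16, Col6a3 0.33, Col3a1 0.60, Lamb2 -0.16 and Myh11 -0.25, endothelial markers had 1 call (Pecam1, 0.59) and skeletal muscle markers 0, and the median spread was 2.06 for FOXP3-low and 5.45 for FOXP3-high.

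Leaving out each library gave ranges of -0.86 to 1.74 for Col4a1, -0.85 to 1.62 for Col4a2, -0.45 to 1.37 for Sparc, -1.01 to 0.96 for Col18a1, -0.46 to 1.95 for Col15a1, -1.42 to 1.90 for Col6a1, -1.64 to 1.90 for Col6a2, -1.76 to 1.93 for Col6a3, -0.79 to 1.33 for Col3a1, -0.52 to 1.51 for Col1a1, -0.44 to 1.22 for Col1a2, -0.15 to 1.83 for Lama4, -0.50 to 2.09 for Lamb1, -0.44 to 0.92 for Lamb2, -1.55 to 1.41 for Myh11, -1.64 to 2.16 for Rgs5 and -1.57 to 0.87 for Flt1. The lowest value came without FOXP3-high replicate 3 and the highest without FOXP3-low replicate 3 in all of these except Lamb2, whose highest came without FOXP3-high replicate 2. The median spread ranged between 2.06 and 8.92 for FOXP3-low and between 2.13 and 13.1 for FOXP3-high, the ratio of summed members from 0.544 to 1.64, and calls from 2 to 4 in procollagen processing, 0 to 1 in endothelial and 0 to 1 in skeletal muscle genes. The cause of these changes was not tested.

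Same-numbered libraries of the groups had correlations of deviations of -0.10, 0.097 and 0.53 for numbers 1, 2 and 3. The value for number 3 was the highest of any pair of a FOXP3-low and a FOXP3-high library. So few values cannot settle whether the numbers pair the samples. With the replicate block, and without FOXP3-low replicate 4, 6 members were called instead of 7 and 6988 of all genes instead of 7357, and Col4a1 was -0.084, Col4a2 -0.098, Col18a1 -0.11, Col6a1 -0.22, Col6a2 -0.25 and Myh11 -0.13.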

Other observations

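Col17a1, a transmembrane collagen of epithelial attachments, was not tested and had counts in FOXP3-low replicates 2 (10 counts) and 3 (121 counts, 8.48 CPM) and 0 counts in the other 5 libraries. Krt5 and Krt14, keratins of basal epithelium, stood at 0.0813, 0, 4.21 and 0 CPM in the FOXP3-low and 0, 0 and 0 CPM in the FOXP3-high libraries and 0.0813, 0.0813, 7.29 and 0 CPM in the FOXP3-low and 0, 0.111 and 0 CPM in the FOXP3-high libraries. Col6a5 had 83 counts in FOXP3-low replicate 1 and at most 10 in any other library. Col17a1 and Col6a5 were chosen after their values were seen, and no result of the reported fit rests on them. With no filter Col17a1 was called, as lower in FOXP3-high.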
